A study of Mus musculus with 21 samples.

Results

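The 35 genes described here make, sense and move sterols and fatty acids. They were chosen as a list of gene symbols and matched to the 27179 gene IDs of the count table, and 35 of 35 were found and had enough counts to be tested. By role, 7 act in the mevalonate arm, 10 act from squalene to cholesterol, 5 control the SREBP transcription factors, 1 carries sterol between membranes, 6 make saturated and monounsaturated fatty acids, 3 make polyunsaturated fatty acids and 3 are targets of the LXR nuclear receptors.

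The study sorted cells of C57BL/6 mice and sequenced their RNA as 21 libraries, 3 for each of 7 groups. The 6 cardiac macrophage groups were CAWS R1, naive R1, CAWS R2, naive R2, CAWS R3 and naive R3, and the last group was splenic monocytes of naive mice. Per the labels, R1 is Ccr2-negative with low MHC-II, R2 is Ccr2-negative with high MHC-II, R3 is Ccr2-positive with high MHC-II, and the monocytes are Ccr2-positive with no MHC-II entry. CAWS is a water-soluble extract of the yeast *Candida albicans* that gives mice a vasculitis used as a model of Kawasaki disease, and naive mice were not challenged. Each library came from a pool of mice, each macrophage pool was sorted into R1, R2 and R3, and no genetic modification is labelled. No age or sex of the mice, CAWS dose or time after challenge is given in the sources used here.

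Cells build cholesterol from acetyl-CoA through mevalonate and squalene. When membrane sterol is low, SCAP carries SREBP proteins from the endoplasmic reticulum to be cleaved, and the freed fragments switch on genes of sterol and fatty acid synthesis, while INSIG proteins hold the complex back when sterol is plentiful. When sterol derivatives build up, LXR receptors switch on genes that export cholesterol, among them *Abca1* and *Abcg1*. Macrophages take up much lipid from dying cells and lipoproteins, so the balance of these pathways is a well-known part of their biology.

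Total counts ran from 12800136 to 23006155 per library. Levels are given as CPM, read counts scaled to a common, TMM-adjusted library size, and levels of different genes are compared only as RPKM, which also divides by gene length. Summed macrophage markers (*Adgre1*, *Csf1r*, *C1qa*, *C1qb*, *Mertk* and *Fcgr1*) ran from 12600 to 20400 CPM in the 18 macrophage libraries and from 3650 to 4400 CPM in the monocytes. Adipocyte markers summed to at most 16.8 CPM in any library, nearly all of it *Fabp4*, and *Lep* and *Cfd* had no count in any library. Some libraries stood apart. In CAWS R2 replicate 2, 3.59% of counts lay in gene IDs without a symbol, against 0.62 to 1.19% in the other libraries, and its counts differed from those of replicates 1 and 3 by a chi-square per degree of freedom of 42.5 and 48.5, against 18.1 between replicates 1 and 3. Naive R3 replicate 2 held 211 CPM of summed fibroblast markers, against 14.2 and 18.8 CPM in the other naive R3 libraries, and monocyte replicate 2 deviated more from its group mean (SD 0.403 log2 units) than replicates 1 and 3 (0.246 and 0.273). Counts of genes past the test are therefore also given without these libraries.

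In CAWS-exposed macrophages, a small set of these genes rose, among them the desaturases *Scd2* and *Fads2*, the mevalonate enzyme *Mvd* and the exporter *Abcg1*, and most of the 35 did not pass the test. *Scd2* and *Abcg1* rose in all 3 populations, *Hmgcs1*, *Mvd*, *Insig1* and *Fads2* rose in 2 of them, and *Mvk*, *Pmvk*, *Fdft1* and *Stard4* rose in 1. *Srebf2*, *Fasn*, *Fads1* and *Mylip* fell, all in R3. A gene passes the test when its edgeR quasi-likelihood p, adjusted by Benjamini-Hochberg over the 13275 genes tested, is under 0.05. In R1, 5 members rose, where 6.07% of all genes rose, and 0 fell, where 2.87% of all genes fell. In R2, 9 rose (6.79% of all genes) and 0 fell (3.5% of all genes). In R3, 4 rose (6.7% of all genes) and 4 fell (8.29% of all genes). Without CAWS R2 replicate 2, 4 members rose in R2, and without naive R3 replicate 2 the R3 counts were 3 and 3. At an unadjusted p under 0.05 edgeR gave 0 members lower in R1 and 1 in R2, and DESeq2 gave 0 lower in both. The median log2 fold change of the 35 members, beside that of all genes, was 0.16 against 0.03 in R1, 0.14 against 0.02 in R2 and -0.01 against -0.06 in R3. In these sorted bulk samples a change in the make-up of the cells and a change in RNA per cell cannot be told apart.

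**Figure D1:**
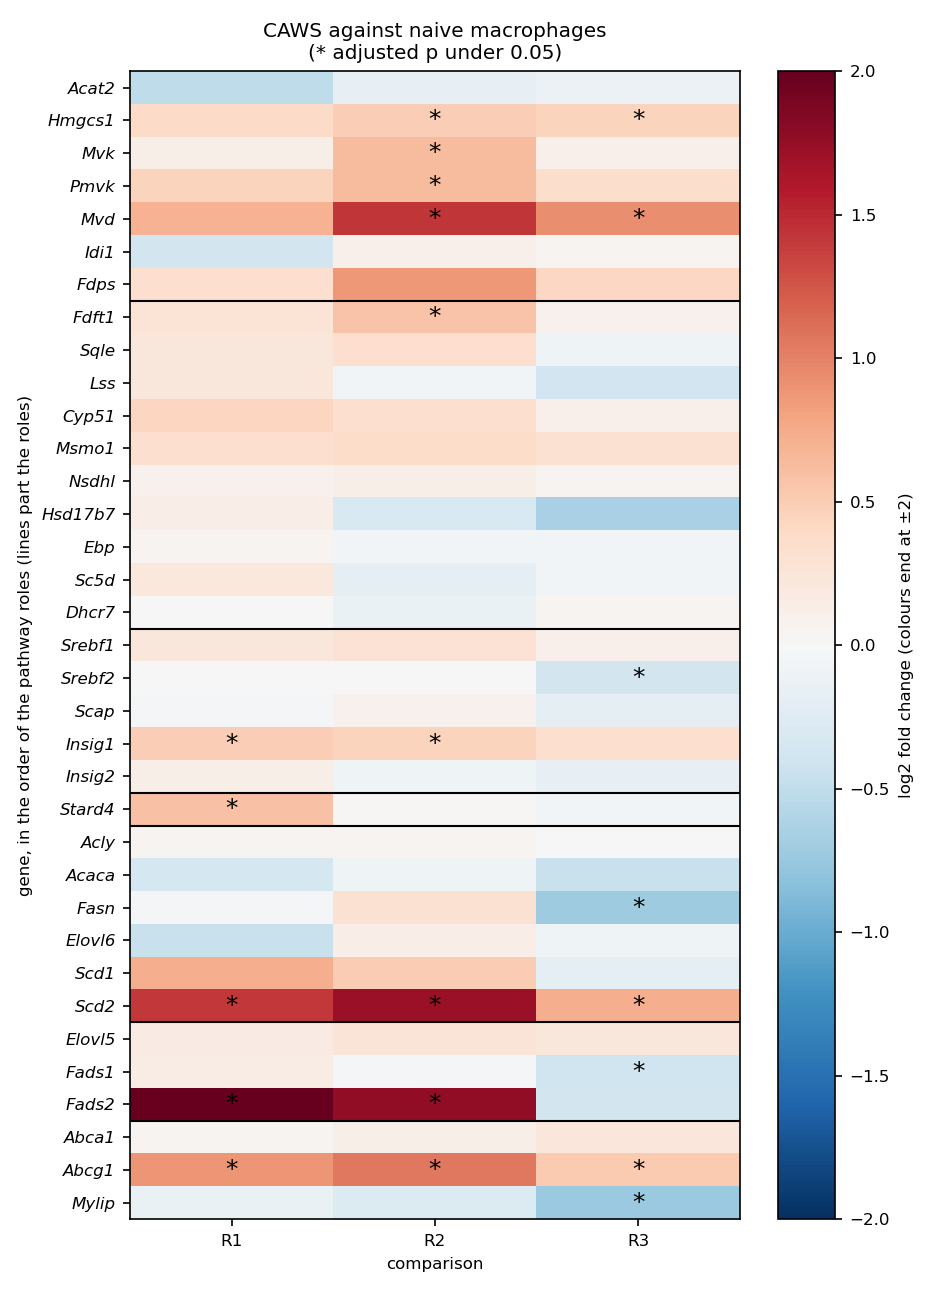
Log2 fold changes of the 35 members (rows, in order of role, roles parted by lines) in CAWS against naive macrophages of R1, R2 and R3 (columns), with an asterisk where the edgeR adjusted p is under 0.05. The asterisks number 5 in R1, 9 in R2 and 8 in R3, where 4 of them mark lower genes.

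In the mevalonate arm the members that passed the test in R2 were *Hmgcs1*, *Mvk*, *Pmvk* and *Mvd*, which make up 4 of the 7 steps listed, and in R3 they were *Hmgcs1* and *Mvd*. *Mvd* decarboxylates mevalonate diphosphate to the first isoprenoid unit (gene ID 192156, GRCm38.p6 chromosome 8, 122433596 to 122443422). It had 10.5, 16.2 and 10.5 CPM in CAWS R2, against 4.83, 5.17 and 3.97 CPM in naive R2. In R3 it had 20.7, 20.7 and 16.7 CPM in CAWS mice, against 10.7, 11.5 and 8.07 CPM in naive mice. In R1 it had 6.26, 9 and 6.25 CPM in CAWS mice, against 4.95, 3.72 and 4.47 CPM in naive mice. The CAWS libraries lay above the naive ones without overlap in each population. The log2 fold change was 1.43 ± 0.21 (SE) in R2 (edgeR adjusted p = 9.58e-05) and 0.93 ± 0.19 in R3 (edgeR adjusted p = 0.00211), and it was 0.69 ± 0.23 in R1, which did not pass (edgeR adjusted p = 0.0687, or 0.0252 with DESeq2 and 0.0276 with the replicate block). Here and below, the replicate block also joins CAWS and naive libraries by number, which no label ties together.

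*Hmgcs1* condenses acetyl-CoA units into HMG-CoA (gene ID 208715, chromosome 13, 119690351 to 119708260). It had 51.3, 58.5 and 59.1 CPM in CAWS R2 and 41.2, 41 and 38.4 CPM in naive R2. In R3 it had 65, 52.4 and 60.7 CPM in CAWS mice and 45.7, 43.7 and 41.2 CPM in naive mice. The groups did not overlap in R2 or R3, and the log2 fold changes were 0.49 ± 0.13 (edgeR adjusted p = 0.0167) and 0.45 ± 0.13 (edgeR adjusted p = 0.0219). In R1 it had 41.6, 50.6 and 55.8 CPM in CAWS mice and 43.2, 35.2 and 33.9 CPM in naive mice, so the groups overlapped, with a log2 fold change of 0.39 ± 0.13 (edgeR adjusted p = 0.0584, or 0.0468 with DESeq2).

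The next kinases moved in R2. Mevalonate kinase, *Mvk*, had 14.7, 12.9 and 11.5 CPM in CAWS R2 and 9.04, 7.45 and 8.46 CPM in naive R2, a log2 fold change of 0.64 ± 0.19 (edgeR adjusted p = 0.0337). Phosphomevalonate kinase, *Pmvk*, had 19.7, 19.9 and 17.5 CPM in CAWS R2 and 14, 11.6 and 11.3 CPM in naive R2, a log2 fold change of 0.63 ± 0.18 (edgeR adjusted p = 0.0265). Every CAWS R2 library was above every naive R2 library for both kinases. *Fdps*, which joins isoprenoid units into farnesyl diphosphate, averaged 7.29 CPM in CAWS R2 and 3.97 CPM in naive R2 and did not pass (log2 fold change 0.87 ± 0.29, edgeR adjusted p = 0.058, or 0.0391 with DESeq2 and 0.00738 with only the groups compared). *Acat2* and *Idi1*, an acetoacetyl-CoA thiolase and an isoprenoid isomerase, passed in none of the 3 CAWS comparisons, and their group means ran from 2.4 to 5.42 CPM in macrophages.

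From squalene to cholesterol, 1 of the 10 members passed the test in a CAWS comparison, in R2. *Fdft1*, squalene synthase, had 12.6, 15.1 and 13.8 CPM in CAWS R2 and 9.35, 9.21 and 9.47 CPM in naive R2, without overlap (log2 fold change 0.57 ± 0.17, edgeR adjusted p = 0.0393). The other 9 (*Sqle*, *Lss*, *Cyp51*, *Msmo1*, *Nsdhl*, *Hsd17b7*, *Ebp*, *Sc5d* and *Dhcr7*) had log2 fold changes between -0.65 (*Hsd17b7* in R3, edgeR adjusted p = 0.116) and 0.43 (*Cyp51* in R1, edgeR adjusted p = 0.173). The median of the arm was 0.22 in R1, 0.04 in R2 and 0 in R3, against 0.33, 0.63 and 0.35 for the mevalonate arm, and the arms were not tested against each other.

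In the SREBP control group, *Insig1*, which retains SCAP and is itself a target of SREBP (gene ID 231070, chromosome 5, 28071412 to 28078662), rose in R1 and R2. It had 57.2, 64.4 and 59.7 CPM in CAWS R1, against 40.9, 37.7 and 51 CPM in naive R1. In R2 it had 65.4, 77.1 and 74.8 CPM in CAWS mice, against 60.6, 48.5 and 50.5 CPM in naive mice. In R3 it had 67.3, 68.6 and 67.9 CPM in CAWS mice, against 54.8, 46.9 and 59.4 CPM in naive mice. CAWS was above naive without overlap in each population, with log2 fold changes of 0.49 ± 0.14 in R1 (edgeR adjusted p = 0.0268), 0.45 ± 0.13 in R2 (edgeR adjusted p = 0.0346) and 0.34 ± 0.13 in R3, where it did not pass (edgeR adjusted p = 0.094, or 0.0436 with only the groups compared). *Srebf2*, which encodes the SREBP that mainly serves sterol genes, had 262, 202 and 228 CPM in CAWS R3 and 342, 282 and 270 CPM in naive R3. It fell there by 0.37 ± 0.12 on the log2 scale (edgeR adjusted p = 0.0462), while its log2 fold changes in R1 and R2 were -0.01 and 0. *Srebf1*, *Scap* and *Insig2* passed in none of the CAWS comparisons. *Stard4*, a carrier of sterol between membranes, had 18.1, 20.8 and 20.4 CPM in CAWS R1 and 15.9, 10.2 and 13.2 CPM in naive R1 (log2 fold change 0.58 ± 0.18, edgeR adjusted p = 0.0497), and its means in R2 (24.3 CPM in CAWS mice, 23.7 CPM in naive mice) and R3 (23.6 CPM in CAWS mice, 24.6 CPM in naive mice) lay close together.

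The promoters of the members that rose in 2 or more CAWS comparisons are shown, as far as the RefSeq table holds them, to set the promoter letters of these genes beside each other. *Hmgcs1* and *Mvd* rose in R2 and R3, and *Insig1* and *Fads2* in R1 and R2. *Scd2*, *Abcg1*, *Stard4*, *Fads1*, *Scd1*, *Fdps*, *Fdft1* and *Sqle* had no window in the RefSeq table. Each line gives the 250 bases before the annotated start (RefSeq, GRCm38.p6), 5′ to 3′ on the gene's strand. The windows searched run from 250 bases before to 50 bases after the start, on both strands, for the sterol regulatory element TCACNCCAC, the E-box CACGTG, which reads the same on both strands, and the CCAAT box, which reads ATTGG on the other strand. Capitals mark the matches, and none of the matches printed overlap. The lines are *Hmgcs1* at chr13:119690101-119690350 (plus strand), *Insig1* at chr5:28071162-28071411 (plus strand), *Mvd* at chr8:122443423-122443672 (minus strand) and *Fads2* at chr19:10101504-10101753 (minus strand).
Hmgcs1: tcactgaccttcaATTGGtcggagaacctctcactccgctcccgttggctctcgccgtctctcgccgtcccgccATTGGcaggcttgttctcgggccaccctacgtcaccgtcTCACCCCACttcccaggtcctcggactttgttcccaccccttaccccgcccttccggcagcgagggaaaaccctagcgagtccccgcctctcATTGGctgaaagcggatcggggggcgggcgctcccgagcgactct
Insig1: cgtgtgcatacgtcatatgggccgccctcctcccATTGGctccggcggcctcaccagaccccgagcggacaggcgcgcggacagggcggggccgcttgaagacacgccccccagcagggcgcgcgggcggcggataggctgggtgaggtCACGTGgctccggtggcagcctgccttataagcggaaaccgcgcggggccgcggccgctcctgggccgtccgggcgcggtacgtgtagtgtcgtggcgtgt
Mvd: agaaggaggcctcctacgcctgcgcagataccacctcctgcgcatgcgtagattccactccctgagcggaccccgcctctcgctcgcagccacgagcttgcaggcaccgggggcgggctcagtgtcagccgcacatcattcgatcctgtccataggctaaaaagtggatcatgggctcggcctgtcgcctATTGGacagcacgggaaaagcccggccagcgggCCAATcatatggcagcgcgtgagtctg
Fads2: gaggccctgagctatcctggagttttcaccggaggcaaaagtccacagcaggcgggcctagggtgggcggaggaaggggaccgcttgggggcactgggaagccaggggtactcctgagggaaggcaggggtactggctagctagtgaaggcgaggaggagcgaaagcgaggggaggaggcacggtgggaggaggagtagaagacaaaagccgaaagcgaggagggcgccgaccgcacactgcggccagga
In *Hmgcs1* the sterol regulatory element begins at -137 from the start and CCAAT boxes at -237, -176 and -45, with a further match at 11 that is not printed. *Insig1* holds an E-box at -101 and a CCAAT box at -216, and *Mvd* holds CCAAT boxes at -60 and -27. *Fads2* has none of these letters in its window. Of the 27 members with a window, 1 held the sterol regulatory element, 7 an E-box and 21 a CCAAT box (3.7%, 25.9% and 77.8%). Of all 27025 genes with a window, 1.44%, 8.09% and 41.1% held them. A match is a description of letters and not a measured binding site.

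Among the fatty acid genes, the desaturases *Scd2* and *Fads2* gave the widest changes. *Scd2* puts the first double bond into saturated fatty acids (gene ID 20250, chromosome 19, 44293676 to 44306864). It had 20.1, 32.9 and 17.8 CPM in CAWS R1, against 9.3, 6.89 and 10 CPM in naive R1. In R2 it had 37.2, 59.3 and 53.4 CPM in CAWS mice, against 16.8, 15.2 and 13.2 CPM in naive mice. In R3 it had 71.5, 84 and 103 CPM in CAWS mice, against 57.8, 54.5 and 45.1 CPM in naive mice. All CAWS libraries exceeded the naive ones of their population, with log2 fold changes of 1.42 ± 0.25 in R1 (edgeR adjusted p = 0.000849), 1.73 ± 0.22 in R2 (edgeR adjusted p = 2.14e-05) and 0.72 ± 0.2 in R3 (edgeR adjusted p = 0.0215). *Scd1*, a closely related gene 87585 bases away, was scarce, with group means from 1.16 to 3.08 CPM in macrophages, and did not pass in any CAWS comparison. How reads shared by both genes were counted is not given in the sources used here, so the split between *Scd1* and *Scd2* is uncertain.

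*Fads2*, the first desaturase in the making of polyunsaturated fatty acids (gene ID 56473, chromosome 19, 10062765 to 10101503), was low in every group and rose in R1 and R2. It had 2.26, 1.74 and 1.47 CPM in CAWS R1, against 0.544, 0.248 and 0.2 CPM in naive R1, which rests on 102 counts in CAWS R1 and 18 counts in naive R1 over 3 libraries each. In R2 it had 4.1, 4.88 and 3.95 CPM in CAWS mice (218 counts), against 1.4, 1.02 and 1.32 CPM in naive mice (79 counts). In R3 it had 2.89, 2.02 and 2.47 CPM in CAWS mice (101 counts), against 2.72, 3.49 and 3.24 CPM in naive mice (157 counts). The groups were apart in R1 and R2 and overlapped in R3. The log2 fold change was 2.36 ± 0.44 in R1 (edgeR adjusted p = 0.0011), 1.77 ± 0.27 in R2 (edgeR adjusted p = 8.35e-05) and -0.36 ± 0.27 in R3 (edgeR adjusted p = 0.405).

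*Fads1* and *Fasn* fell in R3. *Fads1*, the next desaturase of the pathway, lies 81373 bases from *Fads2* (gene ID 76267, chromosome 19, 10182877 to 10196874). It had 128, 135 and 137 CPM in CAWS R3 and 169, 176 and 183 CPM in naive R3, a log2 fold change of -0.40 ± 0.09 (edgeR adjusted p = 0.00574). In R1 it had 195, 210 and 222 CPM in CAWS mice and 184, 206 and 174 CPM in naive mice, and in R2 it had 219, 256 and 255 CPM in CAWS mice and 253, 240 and 252 CPM in naive mice, overlapping in both. *Fasn*, the fatty acid synthase, had 32.3, 32.4 and 40.3 CPM in CAWS R3 and 70.8, 43.3 and 58.6 CPM in naive R3 (log2 fold change -0.71 ± 0.21, edgeR adjusted p = 0.0254). Its means in R1 were 23.6 CPM in CAWS mice and 23.9 CPM in naive mice, and in R2 they were 37.3 CPM in CAWS mice and 30.2 CPM in naive mice. *Acly*, *Acaca*, *Elovl6* and *Elovl5*, which supply acetyl-CoA, commit it to synthesis and lengthen the chains, passed in none of the CAWS comparisons. The log2 fold changes of *Acly* were 0.06, 0.05 and -0.01 in R1, R2 and R3.

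The LXR targets among the members did not move as a group. *Abcg1*, an exporter of cholesterol to lipoproteins (gene ID 11307, chromosome 17, 31057694 to 31117984), had 78, 105 and 88 CPM in CAWS R1, against 50.4, 44.9 and 52.3 CPM in naive R1. In R2 it had 92.7, 141 and 132 CPM in CAWS mice, against 59, 64.5 and 53.2 CPM in naive mice. In R3 it had 144, 152 and 165 CPM in CAWS mice, against 107, 119 and 93.4 CPM in naive mice. It rose without overlap in each, by 0.88 ± 0.16 in R1 (edgeR adjusted p = 0.00107), 1.05 ± 0.16 in R2 (edgeR adjusted p = 9.19e-05) and 0.53 ± 0.15 in R3 (edgeR adjusted p = 0.0225) on the log2 scale. *Abca1*, which exports cholesterol to lipid-poor apolipoproteins, had log2 fold changes of 0.05 ± 0.21 in R1, 0.12 ± 0.22 in R2 and 0.23 ± 0.22 in R3, with overlapping groups in each. *Mylip*, a ubiquitin ligase that marks lipoprotein receptors for breakdown, had 27.3, 28.1 and 32 CPM in CAWS R3 and 44.5, 50.4 and 52 CPM in naive R3, and fell by 0.75 ± 0.13 on the log2 scale (edgeR adjusted p = 0.000365). In R1 and R2 its log2 fold changes were -0.14 and -0.27 and did not pass.

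**Figure D2:**
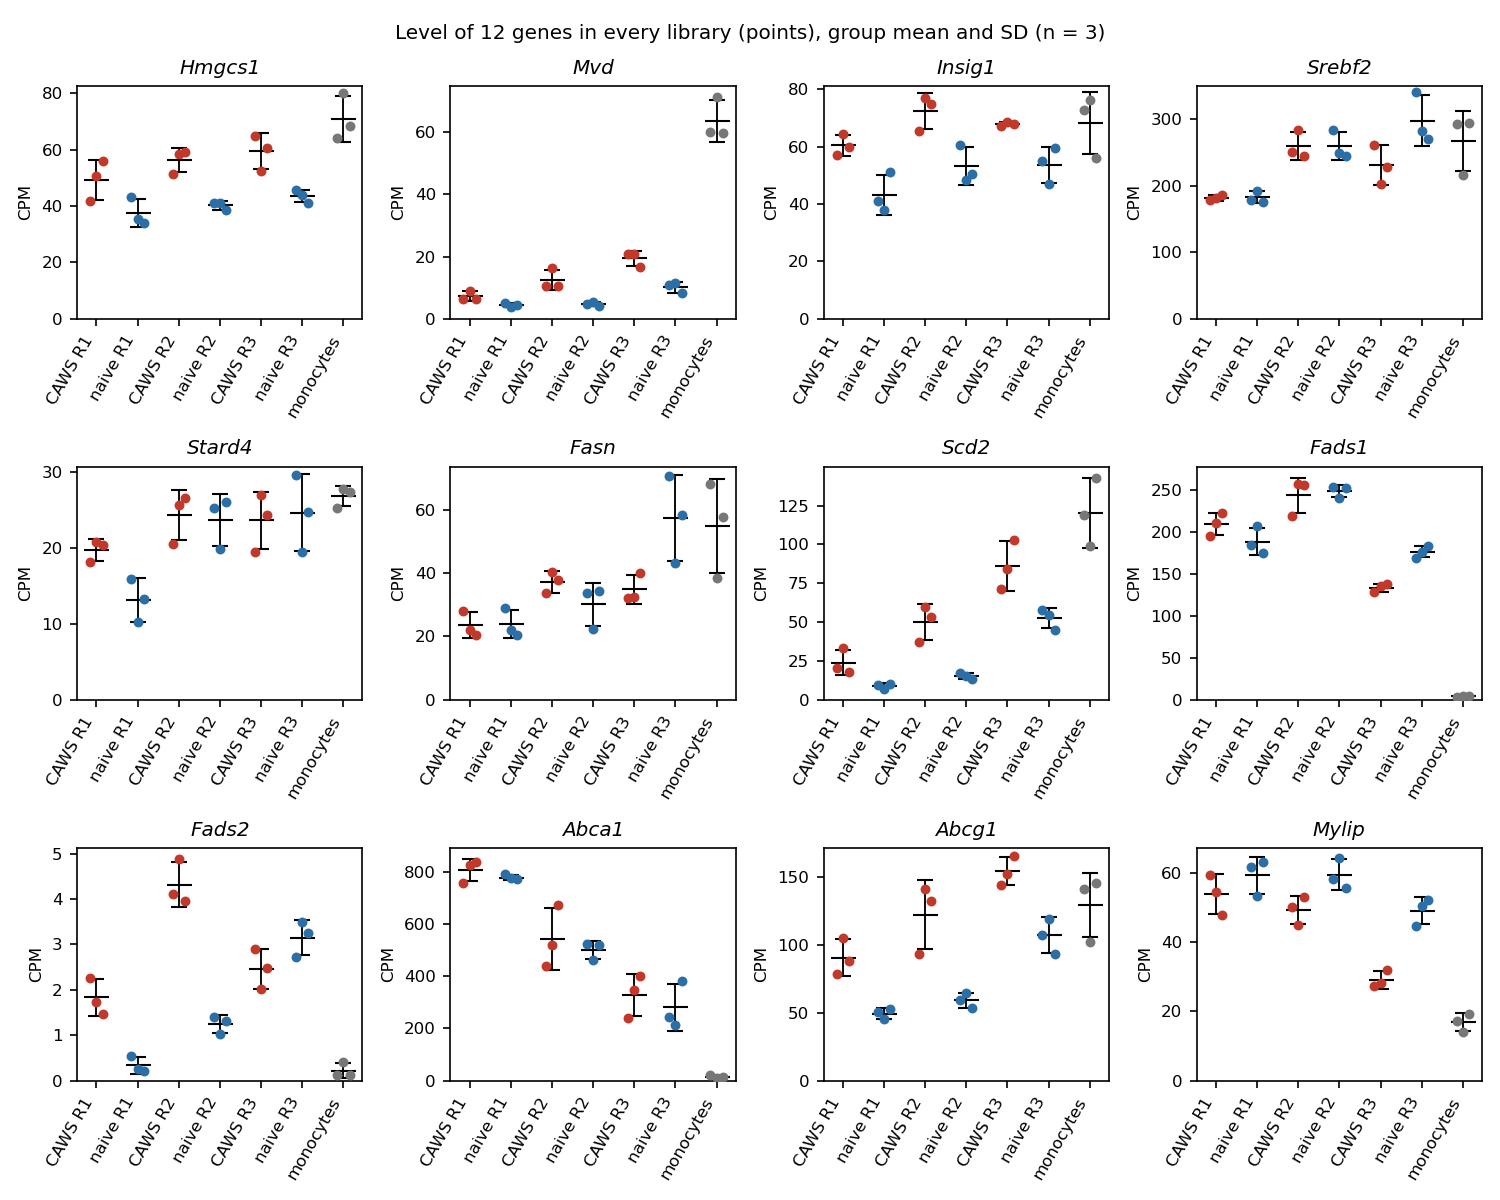
CPM of 12 members in each library (points: red CAWS, blue naive, grey monocytes) with the mean and SD of each group of 3. *Scd2* and *Abcg1* are higher in CAWS than in naive macrophages in each population, *Fads2* in R1 and R2, and *Fads1* and *Abca1* are near 0 in monocytes (means of 3.82 and 14.5 CPM).

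The size of the CAWS response differed between populations for *Fads2* and *Fads1* in a direct test of the difference. The *Fads2* response was lower in R3 than in R1 by 2.71 ± 0.52 log2 units (-2.71, edgeR adjusted p = 0.00302) and lower in R3 than in R2 by 2.13 ± 0.39 (-2.13, edgeR adjusted p = 0.00176). The *Fads1* response was lower in R3 than in R1 by 0.55 ± 0.13 (-0.55, edgeR adjusted p = 0.0242). Between R3 and R1, 2 of 35 members were lower (2.16% of all genes) and 0 higher (0.0979% of all genes), and between R3 and R2, 1 was lower (2.23% of all genes) and 0 higher (0.0979% of all genes). Between R2 and R1, 0 were higher (0.0377% of all genes) and 0 lower (0.0151% of all genes) with edgeR. DESeq2 also gave 0 and 0 there, and at an unadjusted p under 0.05 edgeR gave 1 higher (*Mvd*) and 2 lower (*Sc5d* and *Stard4*), these 3 being named after their values were seen. DESeq2 and edgeR's unadjusted p gave 0 members higher in either difference with R3. For *Scd2* the difference between R3 and R2 was -1.02 ± 0.3 (edgeR adjusted p = 0.0863) and for *Mylip* that between R3 and R1 was -0.60 ± 0.18 (edgeR adjusted p = 0.0796), so neither passed. The *Scd2* difference passed with DESeq2 (0.0466), with only the groups compared (0.0359) and without CAWS R2 replicate 1 (0.0361). The *Mylip* difference passed with DESeq2 (0.0385). For *Fasn* the difference between R3 and R2 was -1.01 and did not pass (edgeR adjusted p = 0.0829). That of *Fasn* passed with DESeq2 (0.0378), with the replicate block (0.0232) and without naive R3 replicate 2 (0.0306). With the pool of mice as a block, *Stard4* also passed between R3 and R1 (log2 difference -0.66, edgeR adjusted p = 0.0428, against 0.243 without the block). Without naive R3 replicate 2 the counts of lower members were 1 for R3 against R1 and 2 for R3 against R2.

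Some of these calls were lost when 1 library was left out, as were calls of genes outside the list. Over all genes, the number past the test went from 1187 to between 673 and 894 in R1. It went from 1365 to between 726 and 1022 in R2 and from 1991 to between 973 and 1887 in R3. In R1 the calls of *Scd2*, *Fads2* and *Abcg1* held under every alternative run. The *Insig1* call was lost without any 1 library of R1 other than naive R1 replicate 3 (edgeR adjusted p 0.053 to 0.162). The *Stard4* call was lost without any other than naive R1 replicate 1 (edgeR adjusted p 0.0724 to 0.239), with other scaling (0.0535), with no filter on low counts (0.0641) and with only the groups compared (0.0599). The number of members past the test in R1 was 3 without CAWS R1 replicate 2, CAWS R1 replicate 3 or naive R1 replicate 2.

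In R2, *Mvd*, *Scd2*, *Fads2* and *Abcg1* held under every alternative run. *Hmgcs1* was lost without CAWS R2 replicate 2 or 3 or naive R2 replicate 2 or 3 (edgeR adjusted p 0.0577 to 0.088), and *Insig1* without any of the same 4 libraries (0.0986 to 0.175). *Pmvk* was lost without CAWS R2 replicate 1 or 2 or naive R2 replicate 2 or 3 (0.083 to 0.127), *Mvk* without any 1 library other than CAWS R2 replicate 3 (0.0647 to 0.151) and *Fdft1* without any 1 of the 6 libraries (0.058 to 0.194). With no filter on low counts *Insig1*, *Mvk* and *Fdft1* were at edgeR adjusted p = 0.0657, 0.0633 and 0.0845. The number past the test in R2 was 4 without CAWS R2 replicate 2, naive R2 replicate 2 or naive R2 replicate 3.

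In R3, *Mvd* and *Mylip* held under every alternative run. *Scd2* was lost without naive R3 replicate 3 or CAWS R3 replicate 2 or 3 (edgeR adjusted p 0.0591 to 0.0908), *Abcg1* without naive R3 replicate 1 or 3 or CAWS R3 replicate 2 or 3 (0.061 to 0.103) and *Hmgcs1* without naive R3 replicate 2 or 3 or CAWS R3 replicate 1 or 3 (0.0547 to 0.0772). *Fads1* was lost without CAWS R3 replicate 1 (0.0596), *Fasn* without naive R3 replicate 1 or 3 or CAWS R3 replicate 1 or 2 (0.0623 to 0.134) and *Srebf2* without naive R3 replicate 1 or 2 or CAWS R3 replicate 2 or 3 (0.0631 to 0.238), with other scaling (0.0527), with no filter (0.0871) and with only the groups compared (0.0806). The number past the test in R3 was 5 without CAWS R3 replicate 1 or naive R3 replicate 1 and 4 without CAWS R3 replicate 2, CAWS R3 replicate 3 or naive R3 replicate 3. The difference in *Fads2* between populations held throughout. That in *Fads1* was lost without naive R1 replicate 1 or 3, naive R3 replicate 2 or 3, CAWS R1 replicate 2 or 3 or CAWS R3 replicate 1 or 2 (0.0551 to 0.144), which leaves 1 member past the test each time, and with no filter (0.108). Between R3 and R2 the count was 2 without CAWS R2 replicate 1.

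Markers of other cells also differed in the same comparisons. Conventional dendritic cell markers (*Flt3*, *Zbtb46*, *Xcr1*, *Clec9a*, *Cd209a*, *Dpp4* and *Ccr7*) summed to 20.3 to 52 CPM in CAWS R1 and 8.75 to 10.9 CPM in naive R1. In R2 they summed to 122 to 332 CPM in CAWS mice and 16.7 to 20.5 CPM in naive mice, and in R3 to 225 to 402 CPM in CAWS mice and 276 to 539 CPM in naive mice. Within CAWS R1 and within CAWS R2, replicate 2 held both the most dendritic cell markers (52 and 332 CPM) and the most *Scd2* (32.9 and 59.3 CPM), *Mvd* (9 and 16.2 CPM) and *Abcg1* (105 and 141 CPM). *Insig1* was highest in the same replicates (64.4 and 77.1 CPM), but *Hmgcs1* was highest in replicate 3 of both groups (55.8 and 59.1 CPM). *Fads2* was highest in replicate 1 of CAWS R1 (2.26 CPM) and replicate 2 of CAWS R2 (4.88 CPM). Within CAWS R3, replicate 1 held the most dendritic cell markers (402 CPM), the least *Scd2* (71.5 CPM) and *Abcg1* (144 CPM), and, with replicate 2, the most *Mvd* (20.7 CPM each). Resident macrophage markers (*Timd4*, *Lyve1*, *Folr2*, *Cd163*, *Mrc1* and *Cbr2*) summed to 7810 to 9810 CPM in CAWS R1 against 12200 to 12800 CPM in naive R1, to 5560 to 5600 CPM in CAWS R2 against 6550 to 7450 CPM in naive R2 and to 2020 to 2120 CPM in CAWS R3 against 3560 to 5730 CPM in naive R3. Classical monocyte markers summed to 3780 to 4900 CPM in CAWS R1 against 5540 to 6980 CPM in naive R1, to 2380 to 2460 CPM in CAWS R2 against 2320 to 3020 CPM in naive R2, to 4330 to 5010 CPM in CAWS R3 against 3830 to 4600 CPM in naive R3 and to 11300 to 15300 CPM in monocytes. *Ly6c2*, a defining marker of classical monocytes, stayed at means of at most 6.91 CPM in macrophages and was at 863 CPM in monocytes. Proliferation markers (*Mki67*, *Top2a*, *Ccnb1*, *Cdk1*, *Birc5*, *Ube2c*, *Rrm2* and *Tyms*) summed to 181 to 289 CPM in CAWS R1 against 73.3 to 175 CPM in naive R1 and to 151 to 241 CPM in CAWS R2 against 59 to 121 CPM in naive R2, without overlap, and to 175 to 305 CPM in CAWS R3 against 75.5 to 223 CPM in naive R3. Immediate early genes (*Fos*, *Fosb*, *Jun*, *Junb*, *Egr1*, *Atf3*, *Ier2* and *Dusp1*), which rise when cells are handled, summed to 545 to 720 CPM in CAWS R1 against 697 to 1380 CPM in naive R1, to 642 to 872 CPM in CAWS R2 against 710 to 1110 CPM in naive R2 and, without overlap, to 756 to 1030 CPM in CAWS R3 against 1160 to 2060 CPM in naive R3. Cardiomyocyte markers were higher without overlap in CAWS R1 (102 to 117 CPM, against 52.7 to 74.8 CPM in naive R1) and lower without overlap in CAWS R3 (74.3 to 117 CPM, against 138 to 165 CPM in naive R3). Summed T cell and NK cell markers reached at most 16.9 CPM in any library. The part of these markers in the changes above was not tested.

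Some other genes of the pathway, outside the 35, also passed the test in the CAWS comparisons. Of 9 other sterol and isoprenoid enzymes, 1 rose (6.07% of all genes) and 3 fell (2.87% of all genes) in R1. Those that fell numbered 1 in R2 (3.5% of all genes) and 1 in R3 (8.29% of all genes). *Lbr*, a sterol reductase that also anchors chromatin to the nuclear envelope, fell in R1 (-0.46 ± 0.11, edgeR adjusted p = 0.0134) and R2 (-0.62 ± 0.11, edgeR adjusted p = 0.00075). The R1 call of *Lbr* was lost without naive R1 replicate 2 (edgeR adjusted p = 0.0598) or CAWS R1 replicate 3 (0.0531).

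Of 9 tested receptors and targets of LXR, RXR and PPAR, 4 rose in R1 (6.07% of all genes). Those that rose in R2 numbered 3 (6.79% of all genes). The counts in R3 were 4 higher (6.7% of all genes) and 1 lower (8.29% of all genes). *Nr1h3*, the gene of LXR alpha, had 7.31, 15.3 and 11.9 CPM in CAWS R1 and 5.2, 4.41 and 7.15 CPM in naive R1. In R2 it had 19.2, 21.2 and 23.4 CPM in CAWS mice and 4.16, 6.14 and 4.19 CPM in naive mice, and in R3 it had 15.6, 18.6 and 19.6 CPM in CAWS mice and 5.33, 5.78 and 9.66 CPM in naive mice. The CAWS libraries were higher without overlap in all 3, by 1.05 ± 0.28 (edgeR adjusted p = 0.0219), 2.16 ± 0.27 (edgeR adjusted p = 1.24e-05) and 1.39 ± 0.27 (edgeR adjusted p = 0.0012) on the log2 scale in R1, R2 and R3. The R1 call of *Nr1h3* was lost without naive R1 replicate 1 or 2 or CAWS R1 replicate 2 or 3 (edgeR adjusted p 0.0656 to 0.143). *Rxra*, an RXR gene, fell in R3 (edgeR adjusted p = 0.00636, or 0.0623 without CAWS R3 replicate 1). *Pparg* rose in R1 and R3 under every alternative run (edgeR adjusted p = 0.00119 and 0.0051). *Pltp* rose in R1, R2 and R3 (edgeR adjusted p = 0.0465, 0.000619 and 0.00962). Its R1 call was lost in 8 of 11 alternatives and its R3 call in 2. *Smpdl3a*, a phosphodiesterase gene switched on by LXR in human macrophages, also rose in R1, R2 and R3 (log2 fold changes 0.61, 0.98 and 0.77, edgeR adjusted p = 0.0168, 0.000275 and 0.00187), the first of which was lost without naive R1 replicate 1 or 2 or CAWS R1 replicate 2 (0.0774 to 0.134).

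Of 15 genes of sterol storage and traffic, 3 rose in R1 (6.07% of all genes) and 2 rose in R2 (6.79% of all genes). The counts in R3 were 2 higher (6.7% of all genes) and 1 lower (8.29% of all genes). *Cd36*, a receptor that takes up oxidised lipoproteins and fatty acids, had 269, 230 and 221 CPM in CAWS R3 and 709, 795 and 1050 CPM in naive R3 (log2 fold change -1.83 ± 0.13, edgeR adjusted p = 2.57e-09). Its response in R3 was lower than in R1 by 1.61 ± 0.17 (-1.61, edgeR adjusted p = 7.36e-06) and lower than in R2 by 1.51 ± 0.17 (-1.51, edgeR adjusted p = 2.62e-05). *Scarb1*, a receptor that exchanges cholesterol with lipoproteins, had 206, 184 and 164 CPM in CAWS R3 and 99.2, 111 and 97.7 CPM in naive R3 (log2 fold change 0.85 ± 0.11, edgeR adjusted p = 1.81e-05). It also rose in R1, with means of 108 CPM in CAWS mice and 79.4 CPM in naive mice (edgeR adjusted p = 0.0145). In R2 the means were 107 CPM in CAWS mice and 82.9 CPM in naive mice (edgeR adjusted p = 0.0361). These calls were lost in 5 of 11 alternatives in R1 and 6 of 11 in R2. *Npc2*, which passes cholesterol out of lysosomes, had 1370, 1580 and 1300 CPM in CAWS R3 and 965, 991 and 992 CPM in naive R3 (log2 fold change 0.53 ± 0.11, edgeR adjusted p = 0.00302). Its means were also higher in CAWS R1 (1030 CPM, against 804 CPM in naive R1) and CAWS R2 (1110 CPM, against 913 CPM in naive R2). It did not pass in R1 or R2. For neither *Scarb1* nor *Npc2* did a difference in response between populations pass. *Cd36* libraries of CAWS R3 thus lay below, and *Scarb1* and *Npc2* libraries above, those of naive R3 without overlap.

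Of 18 other genes of fatty acid synthesis and activation, 1 fell in R1, 2 fell in R2 and 3 fell in R3. The rest did not pass, and 2.87%, 3.5% and 8.29% of all genes fell in R1, R2 and R3. *Hsd17b12*, a reductase of fatty acid elongation, had log2 fold changes of -0.52 ± 0.1 in R1 (edgeR adjusted p = 0.00237), -0.45 ± 0.1 in R2 (edgeR adjusted p = 0.00601) and -0.33 ± 0.1 in R3 (edgeR adjusted p = 0.0309), the last of which was lost without any 1 of the 6 R3 libraries (0.0653 to 0.14), with other scaling (0.0612), with no filter (0.125) and with only the groups compared (0.0798). *Hacd3*, a dehydratase of elongation, fell in R2 (-0.67 ± 0.12, edgeR adjusted p = 0.000636) and R3 (-0.56 ± 0.12, edgeR adjusted p = 0.0033), a call lost in R3 without CAWS R3 replicate 1 (0.0513). Of 10 genes of SREBP processing and turnover, 1 fell in R1 (2.87% of all genes) and 2 fell in R2 (3.5% of all genes). *Erlin1*, a cholesterol-binding protein of the endoplasmic reticulum, fell in both (-0.55 ± 0.11, edgeR adjusted p = 0.00231, and -0.45 ± 0.11, edgeR adjusted p = 0.00767).

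**Figure D3:**
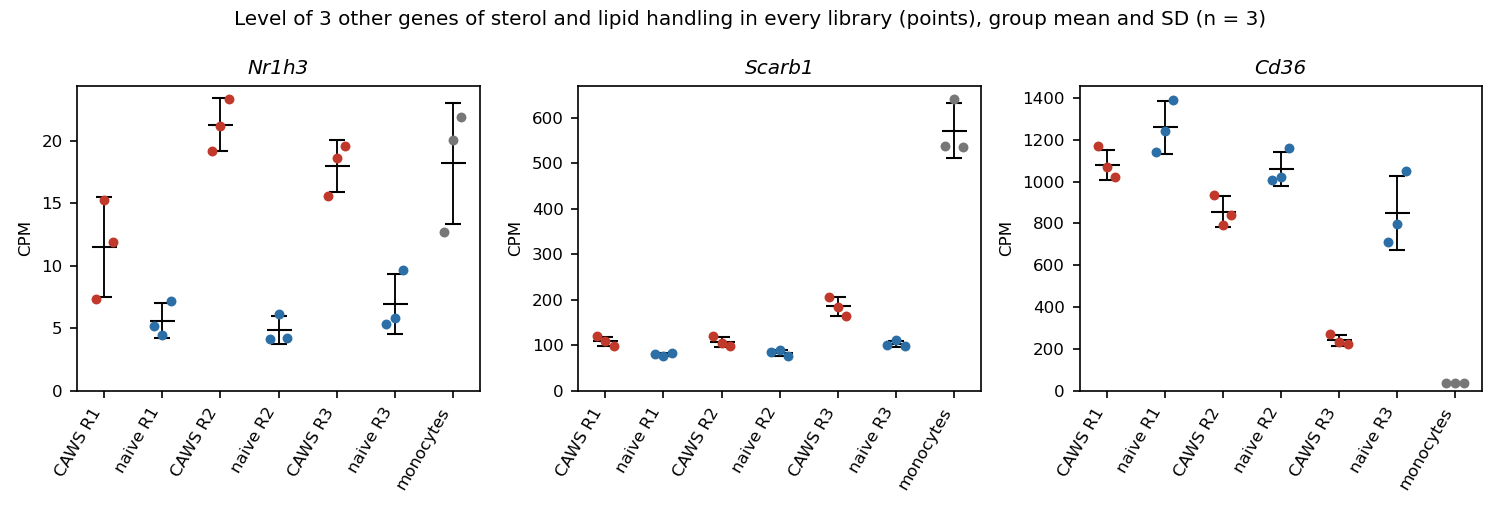
CPM of *Nr1h3*, *Scarb1* and *Cd36*, genes outside the 35, in each library (points: red CAWS, blue naive, grey monocytes) with the mean and SD of each group of 3. *Nr1h3* is higher in CAWS than in naive mice in each population, and *Cd36* in CAWS R3 (mean 240 CPM) is below every naive R3 library.

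The naive populations differed from each other in many of these genes, with naive R3 mostly the higher one. Against naive R1, 15 members were higher in naive R3 (12.5% of all genes) and 1 was lower (10.7% of all genes). Against naive R2, 10 were higher in naive R3 (6.63% of all genes) and 3 were lower (5.77% of all genes). Naive R2 against naive R1 gave 7 higher (3.88% of all genes) and 0 lower (3.25% of all genes). For that 0, edgeR gave 2 at an unadjusted p under 0.05 and DESeq2 gave 1. The members' median log2 fold change, beside that of all genes, was 0.45 against 0.03 for R3 against R1, 0.23 against 0.01 for R3 against R2 and 0.22 against 0 for R2 against R1. Without naive R3 replicate 2 the counts were 15 higher and 1 lower for R3 against R1, and 10 higher and 1 lower for R3 against R2. The comparisons share libraries, so their counts are not independent.

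**Figure D4:**
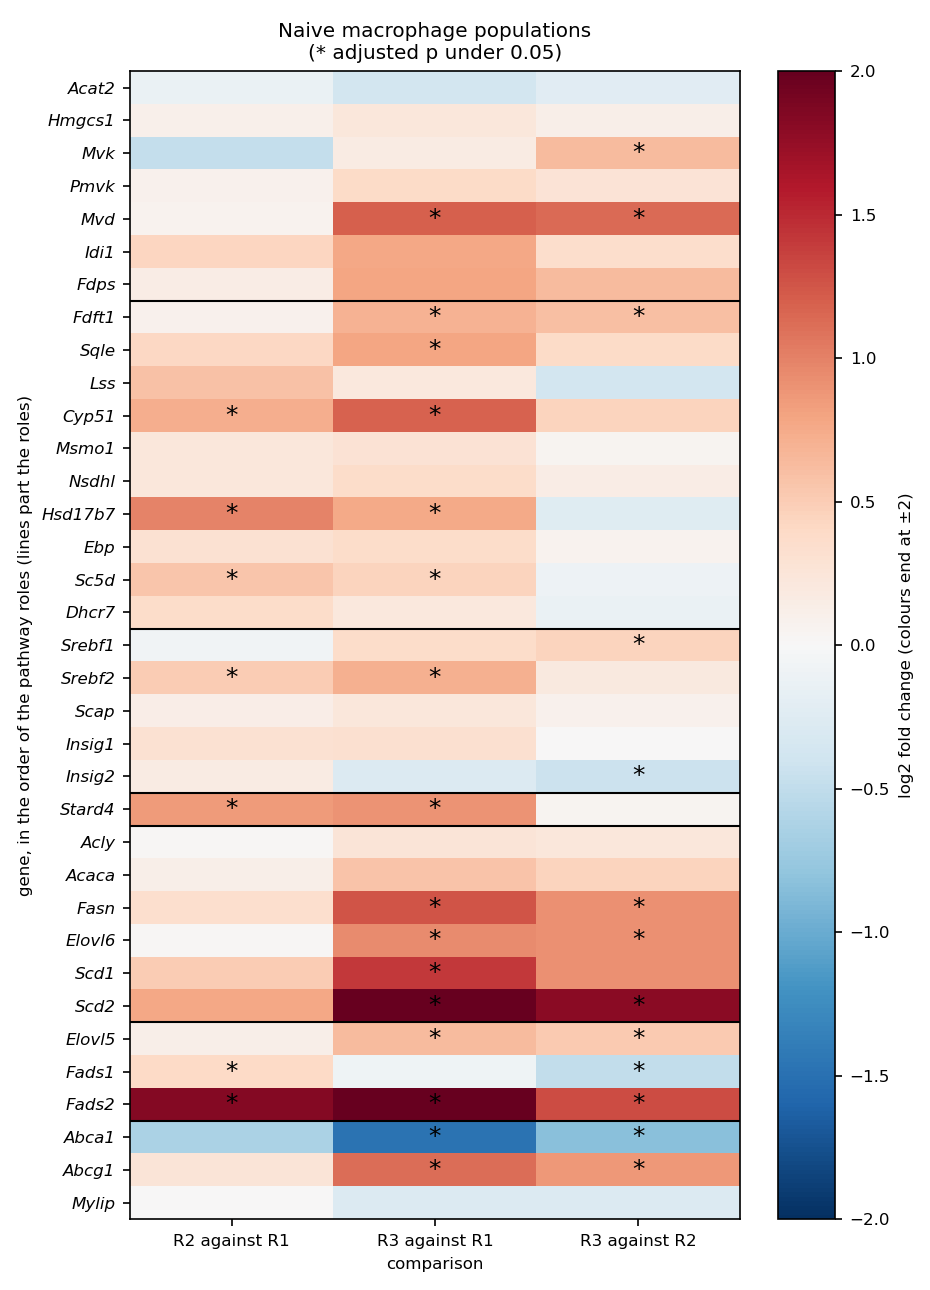
Log2 fold changes of the 35 members (rows, in order of role) between naive macrophage populations (columns), with an asterisk where the edgeR adjusted p is under 0.05. The column of R3 against R1 holds 15 higher and 1 lower members past the test.

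The desaturases *Scd2* and *Fads2* and the exporter *Abcg1* were higher in naive R3 than in both other naive populations. *Scd2* averaged 52.5 ± 6.6 CPM in naive R3, 15.1 CPM in naive R2 and 8.74 CPM in naive R1, a log2 fold change of 2.59 ± 0.24 for R3 against R1 (edgeR adjusted p = 7.69e-08) and 1.80 ± 0.22 for R3 against R2 (edgeR adjusted p = 8.19e-06). *Fads2* averaged 3.15 CPM in naive R3, 1.25 CPM in naive R2 and 0.331 CPM in naive R1, a log2 fold change of 3.14 ± 0.4 for R3 against R1 (edgeR adjusted p = 1.86e-06). *Abcg1* averaged 107 CPM in naive R3, 58.9 CPM in naive R2 and 49.2 CPM in naive R1, with 1.12 ± 0.16 for R3 against R1 (edgeR adjusted p = 1.4e-05) and 0.86 ± 0.16 for R3 against R2 (edgeR adjusted p = 0.000559). The naive R3 libraries of these 3 genes lay above all naive R1 and R2 libraries, whose values are given above.

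*Abca1* ran the other way. It had 245, 215 and 382 CPM in naive R3, 523, 462 and 520 CPM in naive R2 and 792, 777 and 773 CPM in naive R1, so the 3 populations did not overlap. The log2 fold change was -1.48 ± 0.22 for R3 against R1 (edgeR adjusted p = 5.22e-05) and -0.84 ± 0.22 for R3 against R2 (edgeR adjusted p = 0.0146), and for R2 against R1 it was -0.64, which did not pass (edgeR adjusted p = 0.09) but passed with the pool as a block (0.039), with the replicate block (0.0461), with only the groups compared (3.52e-06) and with DESeq2 (0.0422). The call of R3 against R2 was lost without naive R2 replicate 1 or 3 or naive R3 replicate 1 or 2 (0.0502 to 0.0833) and with only the groups compared (0.0635). Per gene length *Abca1* was the highest of the 35 in naive R1, at 76.1 RPKM, while *Fads1* led in naive R2 at 71.8 RPKM and *Srebf2* in naive R3 at 65.1 RPKM.

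In the sterol arms, *Cyp51*, the lanosterol demethylase, had 74.9, 56.6 and 54.8 CPM in naive R3, 54.1, 41.2 and 41.1 CPM in naive R2 and 27.3, 33.3 and 21.3 CPM in naive R1. *Sqle*, squalene epoxidase, had 34.6, 25.2 and 29.4 CPM in naive R3, 25.6, 21.3 and 21.6 CPM in naive R2 and 16.9, 17.3 and 17.4 CPM in naive R1. *Sc5d*, a sterol desaturase, had 29.6, 23.9 and 25.1 CPM in naive R3, 27.9, 26.3 and 29.8 CPM in naive R2 and 19.1, 20.4 and 18 CPM in naive R1. Naive R1 was the lowest population for all 3 genes, without overlap with naive R3. Against naive R1, naive R3 was higher by 1.18 ± 0.19 for *Cyp51* (edgeR adjusted p = 4.99e-05), 0.79 ± 0.15 for *Sqle* (edgeR adjusted p = 0.000343) and 0.45 ± 0.13 for *Sc5d* (edgeR adjusted p = 0.0117) on the log2 scale. *Mvd* (1.20 ± 0.23, edgeR adjusted p = 0.000397), *Fdft1* (0.69 ± 0.18, edgeR adjusted p = 0.00657), *Srebf2* (0.71 ± 0.12, edgeR adjusted p = 0.000171) and *Stard4* (0.90 ± 0.18, edgeR adjusted p = 0.00077) were higher in naive R3 than in naive R1 as well. *Sc5d* was lost without naive R1 replicate 3 (0.0613) or naive R3 replicate 1 (0.0806).

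*Hsd17b7*, a sterol ketoreductase, had 8.34, 6.12 and 9 CPM in naive R3, 9.31, 7.28 and 10.8 CPM in naive R2 and 5.64, 3.04 and 5.08 CPM in naive R1. It passed in R3 against R1 (log2 fold change 0.75 ± 0.27, edgeR adjusted p = 0.0451), a result that did not hold without naive R1 replicate 2 or 3 or naive R3 replicate 1 or 3 (0.0713 to 0.205), with no filter (0.0529) and with only the groups compared (0.0897). It also passed in R2 against R1 (0.99 ± 0.25, edgeR adjusted p = 0.0166), a result that did not hold without naive R1 replicate 2 or naive R2 replicate 1 or 3 (0.057 to 0.108). *Idi1* did not pass in R3 against R1 (log2 fold change 0.77, edgeR adjusted p = 0.0919) but passed with the pool as a block (0.0319) and without naive R3 replicate 3 (0.0489).

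Of the 6 genes of saturated and monounsaturated fatty acids 4 were higher in naive R3 than in naive R1, and of the 3 of polyunsaturated fatty acids 2 were, where 12.5% of all genes were higher. *Acly*, *Acaca* and *Fads1* did not pass. *Fasn* averaged 57.5 CPM in naive R3, 30.2 CPM in naive R2 and 23.9 CPM in naive R1, with log2 fold changes of 1.26 ± 0.21 for R3 against R1 (edgeR adjusted p = 0.00013) and 0.92 ± 0.21 for R3 against R2 (edgeR adjusted p = 0.00445). *Elovl5*, which lengthens polyunsaturated chains, had 121, 114 and 103 CPM in naive R3, 82.7, 81.7 and 72.4 CPM in naive R2 and 60.2, 72.3 and 87.1 CPM in naive R1. *Elovl5* in naive R3 was above all libraries of the other populations (0.63 ± 0.12 against R1, edgeR adjusted p = 0.000568, and 0.52 ± 0.12 against R2, edgeR adjusted p = 0.00618). *Elovl6* and *Scd1* passed in R3 against R1 with smaller margins (edgeR adjusted p = 0.0267 and 0.0432). The *Elovl6* call there was lost without naive R1 replicate 1 or 2 or naive R3 replicate 1 or 3 (0.0604 to 0.167) and with only the groups compared (0.0537), and the *Scd1* call without naive R1 replicate 1 or 2 or naive R3 replicate 1 or 2 (0.0507 to 0.458), with only the groups compared (0.131) and with DESeq2 (0.0539).

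*Fads1* differed from the other fatty acid genes in having its highest naive level in R2. Its means were 176 CPM in naive R3, 248 CPM in naive R2 and 188 CPM in naive R1. It was lower in R3 than in R2 (-0.50 ± 0.09, edgeR adjusted p = 0.000806) and higher in R2 than in R1 (0.40 ± 0.09, edgeR adjusted p = 0.0076), a result that did not hold without naive R1 replicate 3 (0.0577). Naive R2 was also above naive R1 for *Stard4* (0.85 ± 0.18, edgeR adjusted p = 0.00347), which held under every alternative run. *Cyp51* (0.73 ± 0.19, edgeR adjusted p = 0.0151) was lost without naive R1 replicate 1 or 3 or naive R2 replicate 1 (0.0582 to 0.121). *Sc5d* (0.55 ± 0.13, edgeR adjusted p = 0.00707) was lost without naive R1 replicate 3 (0.0545), and *Srebf2* (0.51 ± 0.12, edgeR adjusted p = 0.0109) without naive R1 replicate 3 or naive R2 replicate 1 (0.0512 and 0.0761). *Fads2* (1.83 ± 0.46, edgeR adjusted p = 0.0139) was lost without naive R1 replicate 2 or 3 or naive R2 replicate 1 (0.0587 to 0.076) and with only the groups compared (0.0688). *Scd2* did not pass in R2 against R1 (log2 fold change 0.78, edgeR adjusted p = 0.0667) but passed with the pool as a block (0.0356), with only the groups compared (0.00918) and with DESeq2 (0.0123). The number of members past the test in R2 against R1 was 2 without naive R1 replicate 3 and 3 without naive R2 replicate 1.

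In R3 against R2 the remaining calls were *Mvd* (1.13 ± 0.22, edgeR adjusted p = 0.00105) and *Fads2* (1.31 ± 0.29, edgeR adjusted p = 0.00278), which held under every alternative run, and 5 that did not. *Mvk* (0.63 ± 0.19, edgeR adjusted p = 0.0293), *Fdft1* (0.60 ± 0.17, edgeR adjusted p = 0.025) and *Srebf1* (0.44 ± 0.13, edgeR adjusted p = 0.0362) were each lost without any 1 of the libraries other than naive R3 replicate 2 (0.0527 to 0.145) and with no filter (0.0537 to 0.0556). *Insig2* (-0.43 ± 0.14, edgeR adjusted p = 0.0456) and *Elovl6* (0.92 ± 0.29, edgeR adjusted p = 0.0412) were lost without any 1 of the 6 libraries (0.0527 to 0.203). The number of members past the test in R3 against R2 was 7 without naive R2 replicate 1, naive R2 replicate 3 or naive R3 replicate 1 and 8 without naive R2 replicate 2. Beside these differences, summed dendritic cell markers ran from 276 to 539 CPM in naive R3, from 16.7 to 20.5 CPM in naive R2 and from 8.75 to 10.9 CPM in naive R1, and resident macrophage markers from 3560 to 5730 CPM in naive R3, from 6550 to 7450 CPM in naive R2 and from 12200 to 12800 CPM in naive R1. Their part in the differences was not tested.

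Among genes outside the 35, *Pparg*, a lipid-sensing nuclear receptor, averaged 27.3 CPM in naive R3, 16.5 CPM in naive R2 and 7.44 CPM in naive R1 (1.85 ± 0.22 for R3 against R1, edgeR adjusted p = 1.71e-06). *Pltp*, which transfers phospholipids between lipoproteins, was lower in naive R3 than in naive R1 (1350 and 1850 CPM on average, log2 fold change -0.46 ± 0.1, edgeR adjusted p = 0.00232).

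Many of the sterol and fatty acid synthesis genes were lower in naive R1 and R2 than in splenic monocytes, while in naive R3 lower and higher genes were close in number, and *Abca1*, *Fads1* and *Mylip* were higher in all 3 macrophage populations. Against monocytes, naive R1 had 5 members higher (32.5% of all genes) and 23 lower (30.8% of all genes). Naive R2 had 9 higher (33.1% of all genes) and 19 lower (30.5% of all genes), and naive R3 had 9 higher (31.9% of all genes) and 11 lower (27.1% of all genes). The members' median log2 fold change, beside that of all genes, was -0.64 against 0.05 in naive R1, -0.50 against 0.08 in naive R2 and -0.16 against 0.06 in naive R3. The organ and the sort differ between these groups as well, and cannot be told apart from the cell type. Immediate early genes summed to 697 to 2060 CPM in naive macrophages and 7990 to 11500 CPM in monocytes, and their part was not tested. The 3 comparisons share the monocyte libraries. Without monocyte replicate 2, 5 members were higher and 20 lower in naive R1, 9 higher and 14 lower in naive R2, and 9 higher and 11 lower in naive R3.

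Members lower in all 3 naive populations than in monocytes numbered 11 and included *Mvd*, *Scd2*, *Acly* and *Elovl5*. *Mvd* had 60.1, 71.6 and 59.8 CPM in monocytes, above every macrophage library of the study, with log2 fold changes of -3.85 ± 0.2 in naive R1 (edgeR adjusted p = 1.79e-13), -3.78 ± 0.19 in naive R2 (edgeR adjusted p = 1.43e-13) and -2.65 ± 0.18 in naive R3 (edgeR adjusted p = 2.73e-11). *Scd2* had 119, 98.6 and 143 CPM in monocytes, with -3.78 ± 0.24 in naive R1 (edgeR adjusted p = 1.01e-11), -3.00 ± 0.22 in naive R2 (edgeR adjusted p = 1.43e-10) and -1.20 ± 0.2 in naive R3 (edgeR adjusted p = 3.61e-05). *Scd2* libraries of CAWS R3 (71.5 to 103 CPM) overlapped those of the monocytes. *Acly*, which turns citrate into acetyl-CoA, had 201, 200 and 196 CPM in naive R1, 211, 195 and 199 CPM in naive R2, 249, 224 and 237 CPM in naive R3, and 391, 321 and 431 CPM in monocytes. *Acly* was the highest of the 35 in monocytes per gene length, at 86 RPKM. *Elovl5* averaged 73.2 CPM in naive R1, 78.9 CPM in naive R2, 113 CPM in naive R3 and 226 CPM in monocytes. Both were lower in each naive population (log2 fold changes -0.94, -0.92 and -0.69 for *Acly* and -1.63, -1.52 and -1 for *Elovl5* in R1, R2 and R3, edgeR adjusted p at most 3.65e-06).

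The other members lower in all 3 were *Hmgcs1* (log2 fold changes of -0.92 in R1, -0.82 in R2 and -0.70 in R3), *Fdps* (-2.10, -1.95 and -1.31), *Fdft1* (-1.49, -1.40 and -0.80), *Msmo1* (-1.14, -0.92 and -0.86), *Srebf1* (-0.85, -0.91 and -0.48), *Insig1* (-0.66, -0.36 and -0.34) and *Elovl6* (-1.61, -1.59 and -0.67). In 11 of 11 of these genes the difference from monocytes was smallest in naive R3, for *Insig1* and *Msmo1* by little. Over all genes, too, fewer were lower in naive R3 (27.1%) than in naive R1 (30.8%) and R2 (30.5%). How many of all genes were lower or higher in all 3 populations, or followed this order, was not counted. *Insig1* was lost in naive R2 without naive R2 replicate 2 or 3 or monocyte replicate 1 or 2 (edgeR adjusted p 0.0616 to 0.098) and with only the groups compared (0.102), and in naive R3 without naive R3 replicate 1 or 2 or monocyte replicate 1 or 2 (0.0566 to 0.152) and with only the groups compared (0.148). *Elovl6* was lost in naive R3 without naive R3 replicate 1 or 2 or monocyte replicate 1 or 3 (0.0522 to 0.0892) and with DESeq2 (0.0503). *Pmvk*, *Idi1*, *Sqle*, *Cyp51*, *Acaca*, *Fasn* and *Abcg1* were lower in naive R1 and R2 but not in R3, and *Mvk*, *Nsdhl*, *Ebp*, *Sc5d*, *Srebf2* and *Stard4* in 1 population each. Of these, *Fasn*, *Cyp51* and *Abcg1* held in R1 and R2 under every alternative run.

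Without monocyte replicate 2, which had the highest *Ebp* (118 CPM), *Pmvk* (23.6 CPM) and *Mvk* (16.4 CPM) of all libraries, several of these calls were lost: *Pmvk*, *Nsdhl* and *Ebp* in naive R1 (edgeR adjusted p = 0.136, 0.0711 and 0.17) and *Mvk*, *Pmvk*, *Idi1* and *Sqle* in naive R2 (0.17, 0.268, 0.119 and 0.0549). Apart from *Idi1*, these calls were also lost with only the groups compared (0.0516 to 0.106). *Pmvk* in naive R2 was lost as well without naive R2 replicate 2 or 3 (0.0561 and 0.0738), and *Idi1* in naive R2 without the same libraries (0.148 and 0.0658). *Acaca* was lost in naive R1 without naive R1 replicate 2 or monocyte replicate 3 (0.0629 and 0.143) and with only the groups compared (0.085), and in naive R2 without naive R2 replicate 2 or 3 or monocyte replicate 1 or 3 (0.085 to 0.274) and with only the groups compared (0.13).

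Members higher in all 3 naive populations than in monocytes were *Dhcr7*, *Insig2*, *Fads1*, *Abca1* and *Mylip*. *Fads1* had 3.28, 3.75 and 4.43 CPM in monocytes, with log2 fold changes of 5.61 ± 0.13 in naive R1 (edgeR adjusted p = 2.27e-19), 6.01 ± 0.13 in naive R2 (edgeR adjusted p = 4.84e-20) and 5.52 ± 0.13 in naive R3 (edgeR adjusted p = 3.05e-19). *Abca1* had 20.1, 9.35 and 14 CPM in monocytes, with 5.75 ± 0.28 in naive R1 (edgeR adjusted p = 7.53e-13), 5.11 ± 0.27 in naive R2 (edgeR adjusted p = 3.32e-12) and 4.27 ± 0.26 in naive R3 (edgeR adjusted p = 5.5e-11). The lowest macrophage library of each was many times its highest monocyte library. *Mylip* had 61.6, 53.3 and 63.2 CPM in naive R1, 58.2, 64.3 and 55.6 CPM in naive R2, and 17.2, 14.1 and 19.2 CPM in monocytes (log2 fold changes 1.82 ± 0.13 in R1, 1.81 ± 0.13 in R2 and 1.54 ± 0.13 in R3, edgeR adjusted p at most 1.72e-09).

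*Dhcr7*, which carries out a last reduction to cholesterol, had 42, 43.1 and 42.6 CPM in naive R1, 62.7, 56 and 45 CPM in naive R2, 51.2, 48 and 48.8 CPM in naive R3, and 24.8, 31.5 and 24.2 CPM in monocytes. *Insig2*, the other protein that retains SCAP, had 43.2, 51.2 and 34.5 CPM in naive R1, 46.9, 51 and 46.1 CPM in naive R2, 35.9, 38.9 and 31.7 CPM in naive R3, and 21.5, 21.1 and 20 CPM in monocytes. Neither gene overlapped with the monocytes in any population, and the log2 fold changes were 0.67, 1.03 and 0.88 for *Dhcr7* and 1.04, 1.20 and 0.77 for *Insig2* in R1, R2 and R3 (edgeR adjusted p at most 0.000174). *Insig1* and *Insig2* thus stood on opposite sides of the monocytes. *Lss*, *Hsd17b7*, *Scd1* and *Fads2* were higher in R2 and R3. *Fads2* had 0.129, 0.409 and 0.112 CPM in monocytes, 10 counts over the 3 libraries, so its log2 fold change of 3.87 ± 0.45 in naive R3 (edgeR adjusted p = 8.8e-08) rests on few reads. The *Scd1* call in R2 was lost without monocyte replicate 1 (0.0512) and the *Lss* call in R3 without naive R3 replicate 1 (0.109) and with only the groups compared (0.0518). *Acat2* and *Scap* passed in none of the comparisons with monocytes.

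**Figure D5:**
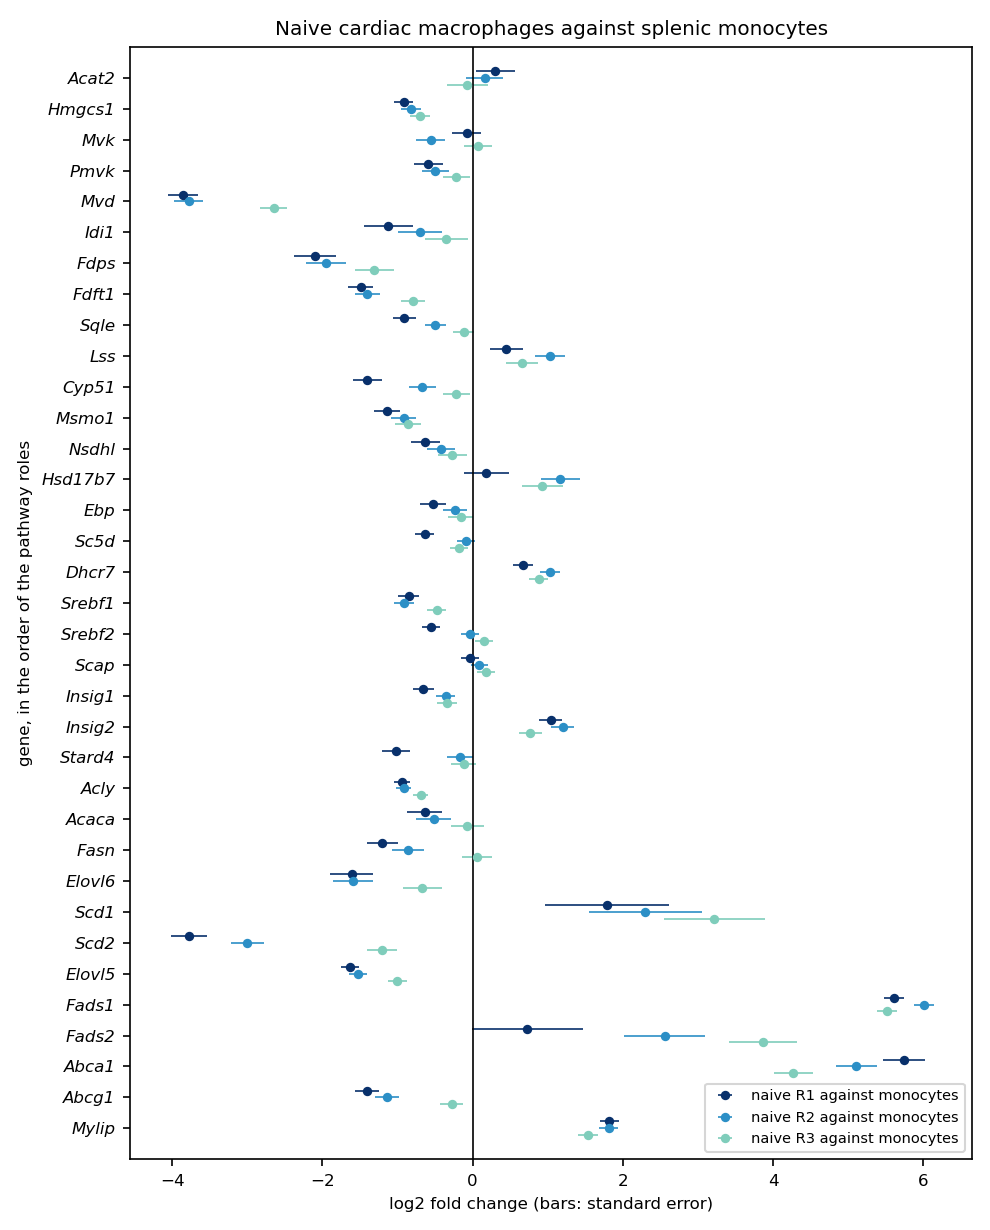
Log2 fold changes (points) with standard errors (bars) of the 35 members in naive R1, R2 and R3 against splenic monocytes, genes in order of role from top to bottom. *Mvd* and *Scd2* lie farthest to the left (-3.85 and -3.78 in naive R1). *Fads1* (6.01 in naive R2) and *Abca1*, with its highest point in naive R1, lie farthest to the right.

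Other genes of the pathway also separated naive macrophages from monocytes in both directions. *Ch25h*, which makes an oxidised sterol that activates LXR, averaged 25.6 CPM in naive R1, 45.9 CPM in naive R2, 32.2 CPM in naive R3 and 0.158 CPM in monocytes (log2 fold change 7.38 ± 0.61 in naive R1, edgeR adjusted p = 4.26e-10). *Cd36* averaged 1260 CPM in naive R1, 1060 CPM in naive R2, 851 CPM in naive R3 and 37.3 CPM in monocytes (5.07 ± 0.15 in naive R1, edgeR adjusted p = 6.06e-18). *Scarb1* averaged 79.4 CPM in naive R1, 82.9 CPM in naive R2, 102 CPM in naive R3 and 572 CPM in monocytes (-2.85 ± 0.12 in naive R1, edgeR adjusted p = 2.83e-15). *Smpdl3a* averaged 110 CPM in naive R1, 67.6 CPM in naive R2, 125 CPM in naive R3 and 1080 CPM in monocytes (-3.30 ± 0.17 in naive R1, edgeR adjusted p = 1.26e-13).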

How the data were processed

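The authors deposited a table of raw read counts per gene and name featureCounts and the mouse build mm10 in the submitters' processing notes. What aligner, versions, annotation release, strand setting and rule for shared reads they used is not given in the sources used here. Gene IDs and gene lengths in bases are given per the file headers. RNA was extracted with RNeasyPlus kits and libraries were made with TruSeq kits, per the labels. Of 27179 gene IDs, 25275 matched a symbol in RefSeq. The 21 per-sample files held the same counts as the table.

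Genes were kept by filterByExpr (minimum count 10, minimum total 15), which left 13275, scaled by TMM and fitted with edgeR 4.0.16 (R 4.3.3) with 1 mean per group over all 21 libraries and 14 residual degrees of freedom. Tests were two-sided quasi-likelihood tests, adjusted by Benjamini-Hochberg over all genes tested in each of 12 comparisons, with a threshold of 0.05. Fold changes of low genes include edgeR's prior count. The scripts were checked on simulated data. The alternatives were DESeq2 1.42.0, RLE scaling, no filter on low counts, only the groups compared, a replicate block, a block for the pool of mice, and leaving out each library in turn. Total counts of 12800136 to 23006155 per library limit low genes, where 3 counts is the least that could be told from 0.

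Per the series' design text each replicate is an independent pool of mice, sorted into R1, R2 and R3. Same-numbered libraries deviated together within a treatment (18 correlations over 8677 genes, 0.14 to 0.59) while 4 of 27 correlations between CAWS and naive macrophages (-0.24 to 0.21) and 12 of 18 of macrophages with monocytes (-0.15 to 0.65) were over 0.1. Since the pools of different treatments are different mice, the number was taken as the pool within a treatment only. The labels do not state this, and the highest correlation, 0.65, was between CAWS R3 and the monocytes of naive mice (replicate 3). The main test has no block, so the libraries of 1 pool enter as independent samples.

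The members, the gene lists and the tests were chosen with earlier results of these data known. All 35 members are accounted for. Values of every library are printed for members past the test in a CAWS comparison. They are also printed for those among the 10 smallest p in a comparison of naive groups. Of other genes of the pathway past the test, mostly those among the 3 smallest p in their list are named, and not all of them. Some genes are not reported here, and the list is not a full account of either pathway.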

Additional observations from a re-analysis of the deposited data

Results flagged for a closer look

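The CAWS response differed between R3 and the other populations, by a direct test of the difference, for 2 of the 35 members between R3 and R1, where 2.16% of all genes were lower, and for 1 between R3 and R2 (2.23% of all genes). For *Fads2* the log2 difference was -2.71 (R3 minus R1, edgeR adjusted p = 0.00302) and -2.13 (R3 minus R2, edgeR adjusted p = 0.00176), with higher *Fads2* in every CAWS library of R1 and R2 and overlapping groups in R3. For *Fads1* it was -0.55 (R3 minus R1, edgeR adjusted p = 0.0242), with every CAWS R3 library below every naive R3 library and overlapping groups in R1. The *Fads1* difference passed against R1 but not against R2, and was lost in 9 of 18 alternatives (edgeR adjusted p up to 0.144). Its neighbour on chromosome 19, *Fads2*, differed in the same direction there, but the neighbours did not move together elsewhere. In R1 and R2 *Fads2* rose with CAWS while the *Fads1* groups overlapped. In naive R3 against naive R2, *Fads2* was higher and *Fads1* lower.

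Among the other genes of the pathway, the response of *Cyb5r3*, a reductase that feeds electrons to desaturases and sterol oxidation, differed by -0.69 (R3 minus R1, edgeR adjusted p = 0.00508) and -0.72 (R3 minus R2, edgeR adjusted p = 0.00343), and the gene fell in R3 (-0.42, edgeR adjusted p = 0.00541, or 0.0519 without CAWS R3 replicate 2). The response of *Cd36* differed by -1.61 (R3 minus R1, edgeR adjusted p = 7.36e-06) and -1.51 (R3 minus R2, edgeR adjusted p = 2.62e-05). That of *Acsl1*, which activates long-chain fatty acids, differed by -0.61 (R3 minus R1, edgeR adjusted p = 0.0458), a call lost without any 1 library of R1 or R3 other than naive R1 replicate 2 (0.0547 to 0.182), with RLE scaling (0.0546), with no filter (0.115) and with only the groups compared (0.0552). In the same libraries the 6 resident macrophage markers all fell in R3 (8.29% of all genes) and 2 of 6 fell in R1 (2.87% of all genes). Their sum was lower in CAWS than in naive mice without overlap in each population. R2 had 5560 to 5600 CPM in CAWS mice and 6550 to 7450 CPM in naive mice. The part of these markers in the differences was not tested.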

How the results depend on the processing

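Under settings that kept all libraries, 62 of 66 counts of members past the test stayed within 1.5 times the main count. The exceptions were R3 minus R1 with no filter on low counts (1, against 2) and R3 minus R2 with the replicate block (2, against 1), with only the groups compared (2) and with DESeq2 (3). Leaving out 1 library at a time gave 3 to 5 members for CAWS R1 (5 with all libraries), 4 to 7 for CAWS R2 (9), 4 to 6 for CAWS R3 (8), 0 to 0 for R2 minus R1 (0), 1 to 2 for R3 minus R1 (2) and 1 to 2 for R3 minus R2 (1). It gave 2 to 7 for naive R2 against R1 (7), 12 to 16 for naive R3 against R1 (16) and 7 to 11 for naive R3 against R2 (13). Against monocytes it gave 25 to 29 for naive R1 (28), 23 to 29 for naive R2 (28) and 18 to 20 for naive R3 (20). Of 137 member results past the test, 93 passed under every alternative and 0 changed sign, and the cause of the lost calls was not tested.

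With the pool as a block within a treatment, 3 members passed for R3 minus R1 and 1 for R3 minus R2. That block brought in *Stard4*, *Scd2*, *Abca1* and *Idi1* as given above, of which *Scd2*, *Abca1* and *Idi1* also passed under other settings, and changed no other call of a member. The plain replicate block, which also joins numbers across treatments that no label ties together, gave 6 members for CAWS R1, 9 for CAWS R2 and 8 for CAWS R3. Depth limits low genes such as *Fads2* and *Scd1*.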
